A study of Mus musculus with 8 samples.

Results

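Integrins are the receptors by which a cell holds on to its matrix, and the cell adhesion molecules taken with them here are membrane proteins with immunoglobulin domains that bind neighbouring cells. Their mRNA levels were measured in mouse embryonic fibroblasts (MEFs), connective-tissue cells grown from mouse embryos. Members were taken by gene name: all integrin alpha (Itga) and beta (Itgb) genes, with Vcam1, Icam1, Icam2, Alcam, Mcam, Ncam1, L1cam, Nrcam and Chl1. This set of names was chosen with earlier results of these data known, so comparisons of members with all genes are descriptions. The names were found for 35 of the 55358 genes in the data, 26 of them integrin subunits (8 beta and 18 alpha) and 9 other adhesion molecules, which together held 209 of the 142869 transcripts.

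Each of the 4 groups had 2 libraries: Arid5a-/- MEFs (KO) kept for 24 h with interleukin 6 (IL-6) at 100 ng/ml, Arid5a-/- MEFs kept for 24 h without it, wild-type MEFs (WT) with IL-6 under the same conditions, and WT MEFs without it. Groups without IL-6 are called untreated below. Arid5a is an RNA-binding protein that stabilises certain inflammatory mRNAs, and IL-6 is a cytokine that signals through the transcription factor STAT3. The series was made to look for long non-coding RNAs tied to IL-6 and Arid5a in breast cancer. The labels state neither how the Arid5a allele was made nor how many embryos or cultures stand behind a group, so a genotype may be 1 line. All p-values therefore reflect library-to-library spread alone, and that spread may be technical.

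An integrin is a pair of 1 alpha and 1 beta subunit, and the pair decides the ligand. The beta 1 subunit pairs with most alpha subunits, while alpha v also pairs with beta 3, beta 5, beta 6 and beta 8. Fibronectin and vitronectin are bound through their RGD sequence by alpha 5 and alpha v integrins, laminins by alpha 3, alpha 6 and alpha 7, and collagens by alpha 1, alpha 2, alpha 10 and alpha 11. In fibroblasts these receptors anchor the actin cytoskeleton to matrix at focal adhesions. VCAM-1 and ICAM-1 are the ligands that leukocyte integrins grip on other cells, and NCAM, L1, ALCAM and MCAM join cells to each other.

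Values were FPKM, fragments per kilobase of transcript scaled to the mapped fragments of the library, summed over the transcripts of a gene, so that levels of different genes are compared per length. Libraries held 12570 to 12699 genes at 1 FPKM or more. The steps between low values corresponded to 36850000 to 47100000 fragments per library, an estimate from the values. Across genes, log2 levels correlated at 0.9927 to 0.9935 between the 2 libraries of a group and at 0.8405 to 0.8503 between a KO and a WT library. Arid5a itself was at 5.51 to 8.47 FPKM in KO libraries and 15.9 to 31.0 FPKM in WT libraries, with no overlap. A gene was tested if it reached 1 FPKM in at least 2 of the 8 libraries, which 13693 genes and 21 of the 35 members did (6 beta subunits, 9 alpha subunits and 6 other adhesion molecules). Differences are given as log2 of FPKM + 1 with their standard error, and a result passed at a Benjamini-Hochberg adjusted p below 0.05 over all genes tested.

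The genotypes also differed in markers of cell types. All 5 mesothelial markers were higher in KO in both conditions, with a summed level of 1487 to 1540.0 FPKM in KO libraries and 38.3 to 52.7 FPKM in WT libraries. Upk1b, Upk3b and Lrrn4 were at or under 0.0368 FPKM in every WT library. Of the 7 epithelial markers 5 were tested, 4 of them higher in KO and Cldn7 lower, with sums of 267.0 to 280.8 FPKM in KO and 7.79 to 10.3 FPKM in WT, mostly Krt19, which is also on the mesothelial list. The 10 fibroblast markers summed to 4099.5 to 4337 FPKM in KO and 3264 to 3827 FPKM in WT. Without IL-6, Col1a1, Col3a1 and Dcn were higher in KO, and Pdgfra, Pdgfrb, Vim, Lum and Thy1 were lower. The leukocyte list summed to 4.53 to 6.33 FPKM in KO and 21.3 to 38.6 FPKM in WT, mostly Cd14, with Ptprc and Adgre1 under 0.1 FPKM in all 8 libraries. Of the 8 endothelial markers 3 were tested, Tek and Kdr higher and Egfl7 lower in KO, with sums of 22.7 to 23.7 FPKM in KO and 15.1 to 17.3 FPKM in WT, while Cdh5, Emcn, Cldn5 and Tie1 were under 0.1 FPKM in every library. All 6 skeletal-muscle markers were under 0.1 FPKM throughout. The part of these markers in the differences between KO and WT below was not tested.

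Promoter sequence is shown for 4 members. By log2 of FPKM + 1, Alcam had the largest difference in favour of KO among the tested members and Itgb7 the largest in favour of WT without IL-6. By the group means Itga11, close to 0 in WT, was 7.81-fold higher in KO without IL-6 and 18.4-fold with it. The same ratios for Alcam were 5.76 and 8.79. Icam1 and Itga10 changed in opposite directions with IL-6 in WT, though the Icam1 call ended in 11 of 16 alternative settings of the test. RefSeq promoters (GRCm38.p6, 250 bases before to 50 after the start) were found for 24 of the 35 members and 15 of the 21 tested, 27 promoters in all. They were searched on both strands for TTCNNNGAA, the letters bound by STAT factors, TGANTCA (AP-1), GGAATG (TEAD), GGGCGG (GC box) and the kappaB consensus, and capitals mark the matches. Alcam lies at chr16:52453032-52453331 on the minus strand, Itgb7 at chr15:102231886-102232185 on the minus strand, Icam1 at chr9:21015690-21015989 on the plus strand and Itga10 at chr3:96645334-96645633 on the plus strand, each printed 5′ to 3′ along its gene.
Alcam: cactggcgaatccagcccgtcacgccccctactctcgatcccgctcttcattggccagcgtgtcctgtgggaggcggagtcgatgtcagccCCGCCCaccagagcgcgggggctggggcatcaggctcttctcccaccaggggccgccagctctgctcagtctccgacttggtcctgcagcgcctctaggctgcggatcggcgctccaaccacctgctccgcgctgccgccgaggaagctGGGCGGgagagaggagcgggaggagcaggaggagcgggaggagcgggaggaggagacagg
Itgb7: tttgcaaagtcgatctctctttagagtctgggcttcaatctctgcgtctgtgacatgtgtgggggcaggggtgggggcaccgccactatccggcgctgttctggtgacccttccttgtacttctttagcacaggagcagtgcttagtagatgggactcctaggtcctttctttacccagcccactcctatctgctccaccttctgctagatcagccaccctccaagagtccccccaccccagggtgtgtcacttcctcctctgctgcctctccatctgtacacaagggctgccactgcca
Icam1: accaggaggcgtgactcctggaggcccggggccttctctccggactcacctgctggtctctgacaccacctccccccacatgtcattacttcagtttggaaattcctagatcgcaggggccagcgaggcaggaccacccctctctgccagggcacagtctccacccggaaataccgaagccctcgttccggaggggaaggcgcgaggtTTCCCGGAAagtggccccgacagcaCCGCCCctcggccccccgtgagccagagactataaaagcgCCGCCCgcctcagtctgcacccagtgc
Itga10: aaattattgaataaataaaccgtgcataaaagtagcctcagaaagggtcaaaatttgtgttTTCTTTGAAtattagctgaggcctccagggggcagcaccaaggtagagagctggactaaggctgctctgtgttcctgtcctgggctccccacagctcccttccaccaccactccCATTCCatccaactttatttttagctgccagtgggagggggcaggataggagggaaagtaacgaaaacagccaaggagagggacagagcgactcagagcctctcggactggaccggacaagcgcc

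Icam1 and Itga10 held the only STAT matches among the 27 member promoters. Vcam1, Ncam1 and Itga6, which fell with IL-6 in WT, had no promoter to search. The Icam1 match, TTCCCGGAA, began 42 bases before the start, with GC boxes on either side of the start. The Itga10 match, TTCTTTGAA, began 189 bases before the start, with a TEAD match 75 bases before the start. The Alcam window held 2 GC boxes and the Itgb7 window none of these letters. No matches overlapped in the printed windows. Among all 32851 promoters of the same length, 8.3% held the STAT letters, 7.81% AP-1, 14.7% TEAD, 35.7% a GC box and 4.51% the kappaB consensus. Among the 27 member promoters the numbers were 2, 3, 2, 15 and 0. A match describes the letters in this window and is not evidence of a bound factor.

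The adhesion genes of KO MEFs differed from those of WT MEFs in most members, and in both directions. In KO without IL-6, Alcam, Ncam1, Vcam1, Mcam, Itga3, Itgav, Itga1, Itga11, Itgb3 and Itgb8 were higher, and Icam1, L1cam, Itgb7, Itgb5, Itgb4, Itga5, Itga6, Itga7, Itga10 and Itga2b were lower. This is 20 of the 21 tested members, 10 in each direction, with Itgb1 alone not passing. Across all genes 71.0% passed in the same comparison (36.4% higher and 34.5% lower), so a pass is the usual outcome for any gene here. With IL-6 in both genotypes 19 of 21 passed, 11 higher and 8 lower, against 71.7% of all genes (36.9% higher and 34.8% lower). The median size of the difference was 1.02 log2 units over the tested members without IL-6, beside 0.39 over all genes, and 0.90 beside 0.40 with IL-6. Of the members tested, 4 reached the expression threshold in 1 genotype only (Itga1 and Itga11 in KO, Itgb7 and L1cam in WT) and so had to differ. These 4 are included in the counts and medians above, and their p-values between KO and WT are no independent support. In these bulk libraries, fewer cells that express a gene and less of its RNA per cell cannot be told apart.

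The libraries separated by genotype for nearly all of these genes. For 19 of the 21 tested members the 4 KO libraries lay wholly above or wholly below the 4 WT libraries, as they did for 70.5% of all genes tested. The ranges overlapped for Itga6 and Itgb4.

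**Figure D1:**
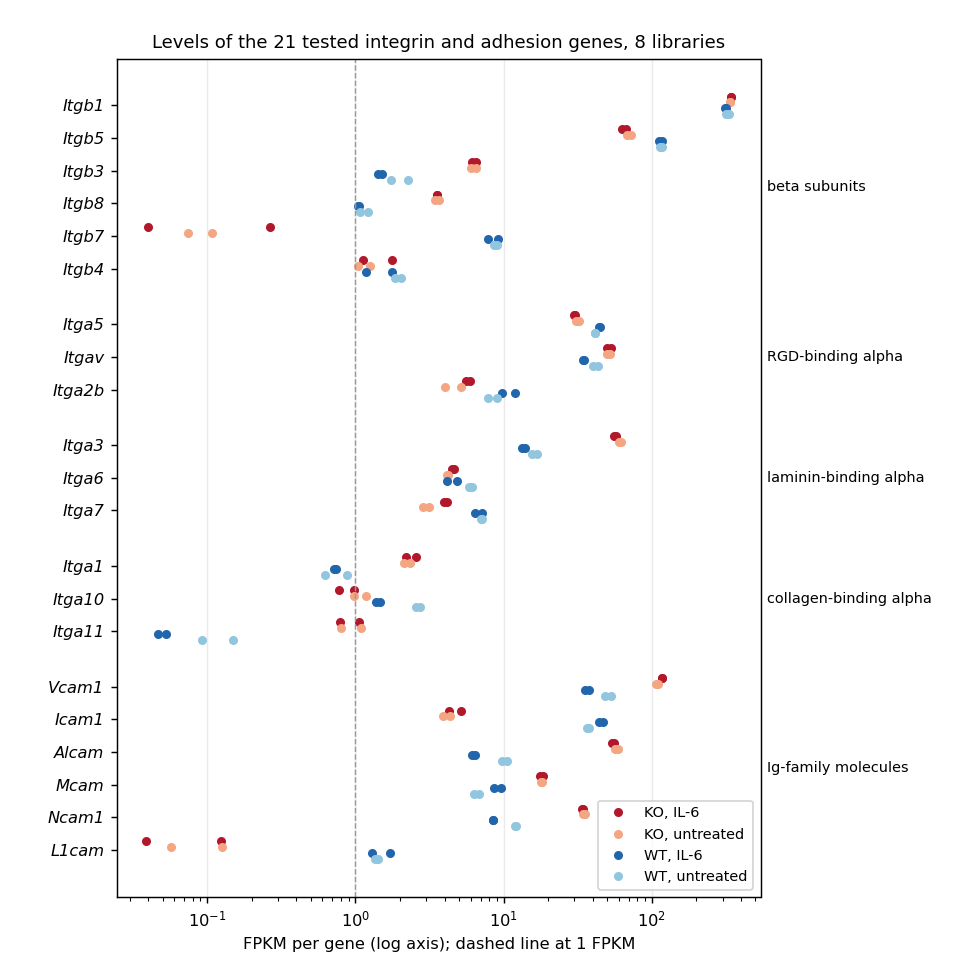
FPKM per gene on a log axis for the 21 tested members in the 8 libraries, 1 point per library, coloured by group and ordered by role, with a dashed line at 1 FPKM. Itgb1 is at 312 to 344 FPKM in all libraries, while Itgb7 and L1cam lie far to the left in KO and Itga11 in WT.

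Itgb1, the beta subunit shared by most integrins, was the highest member and differed least without IL-6. It stood at 344 and 342 FPKM in KO with IL-6 and 338 and 338 in untreated KO, against 312 and 316 in WT with IL-6 and 316 and 333 in untreated WT. All 4 KO libraries were above all 4 WT libraries by a narrow margin. The difference was 0.06 ± 0.036 without IL-6 (adjusted p = 0.1606) and, with IL-6, 0.13 ± 0.036 (adjusted p = 0.01482). The first passed after quantile normalization (0.15, adjusted p = 0.009698) or with equal totals (0.11, adjusted p = 0.03296). The second did not pass without WT library 1 with IL-6 (adjusted p = 0.06016) or without KO library 1 (0.06393) or 2 (0.05391) with IL-6, and the difference was 0.25 with quantile normalization.

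Itgb5, which pairs with alpha v to bind vitronectin, came second among the beta subunits. Its levels were 63.4 and 67.4 FPKM in KO with IL-6 and 67.8 and 72.2 in untreated KO, against 113 and 116 in WT with IL-6 and 118 and 114 in untreated WT. Every KO library was below every WT library, by -0.72 ± 0.048 without IL-6 (adjusted p = 6.286e-06) and, with IL-6, -0.80 ± 0.048 (adjusted p = 3.38e-06). Itgb3, another RGD-binding partner of alpha v, is best known from platelets and osteoclasts. It was at 6.16 and 6.49 FPKM in KO with IL-6 and 6.07 and 6.56 in untreated KO, against 1.502 and 1.41 in WT with IL-6 and 1.75 and 2.25 in untreated WT. Here all KO libraries were the higher ones, by 1.29 ± 0.096 without IL-6 (adjusted p = 1.148e-05) and, with IL-6, 1.58 ± 0.096 (adjusted p = 3.528e-06). Itgb8, whose pair with alpha v activates latent TGF-beta, had the same order. It was at 3.55 and 3.55 FPKM in KO with IL-6 and 3.67 and 3.43 in untreated KO, against 1.04 and 1.06 in WT with IL-6 and 1.07 and 1.21 in untreated WT. The difference was 1.09 ± 0.077 without IL-6 (adjusted p = 8.76e-06) and, with IL-6, 1.15 ± 0.077 (adjusted p = 6.012e-06).

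Itgb7, a subunit best known from lymphocytes that home to the gut, was nearly absent from KO MEFs. It was at 0.0398 and 0.265 FPKM in KO with IL-6 and 0.107 and 0.0743 in untreated KO, against 7.90 and 9.12 in WT with IL-6 and 8.62 and 8.997 in untreated WT. These levels correspond to about 4.0 to 9.9 fragments per KO library and 705 to 863 per WT library. The difference was -3.17 ± 0.11 without IL-6 (adjusted p = 2.033e-07) and, with IL-6, -3.05 ± 0.11 (adjusted p = 2.384e-07), and -5.55 and -5.25 with a pseudocount of 0.1 in place of 1. Itgb7 was tested only because WT libraries reached the expression threshold, so these p-values are no independent support. Both alpha subunits known to pair with beta 7 were under the expression threshold: Itga4 was at 0.078 to 0.126 FPKM in KO and 0.00531 to 0.0289 FPKM in WT, and Itgae at 0.0368 to 0.0614 FPKM in KO and 0.137 to 0.175 FPKM in WT.

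Itgb4, the hemidesmosome subunit of epithelia, was low in all groups. It was at 1.12 and 1.77 FPKM in KO with IL-6 and 1.04 and 1.26 in untreated KO, against 1.78 and 1.17 in WT with IL-6 and 2.02 and 1.84 in untreated WT. The untreated groups did not overlap, the groups with IL-6 did. Without IL-6 the difference of -0.45 ± 0.16 passed (adjusted p = 0.03966), but not without any 1 of the 4 untreated libraries (adjusted p = 0.06646 to 0.1607) or without the expression threshold (0.1066), and it was -0.70 with a pseudocount of 0.1. With the replicate number as a block the adjusted p was 0.056. With IL-6 it was -0.02 ± 0.16 (adjusted p = 0.923). Coding transcripts held 94.3 and 97.1% of the Itgb4 FPKM in untreated KO and 61.2 and 65.0% in untreated WT. With IL-6 they held 100 and 64.1% in KO and 63.9 and 92.3% in WT. The difference in the gene sum is therefore not a difference in coding mRNA. Itgb2, the leukocyte beta subunit, stayed under the threshold at 0.655 to 0.727 FPKM in KO and 0.394 to 0.755 FPKM in WT, and Itgb6, the epithelial partner of alpha v, at 0 to 0.0152 FPKM in KO and 0.0267 to 0.0696 FPKM in WT.

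In composition, Itgb1 made up 80.1 to 82.1% of the summed FPKM of the 8 beta genes in KO libraries and 70.5 to 72.1% in WT libraries. Itgb5 made up 15.2 to 17.1% in KO and 24.7 to 26.3% in WT, and Itgb7 0.0095 to 0.063% in KO and 1.80 to 2.05% in WT. Among Itgb3, Itgb5, Itgb6 and Itgb8, the partners of alpha v other than Itgb1, Itgb5 held 86.7 to 87.8% in KO and 97.0 to 97.9% in WT, Itgb3 7.83 to 8.42% in KO and 1.19 to 1.92% in WT, and Itgb8 4.17 to 4.85% in KO and 0.887 to 1.03% in WT. No KO library overlapped a WT library in any of these shares. These are shares of mRNA, and protein pairs were not measured.

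**Figure D2:**
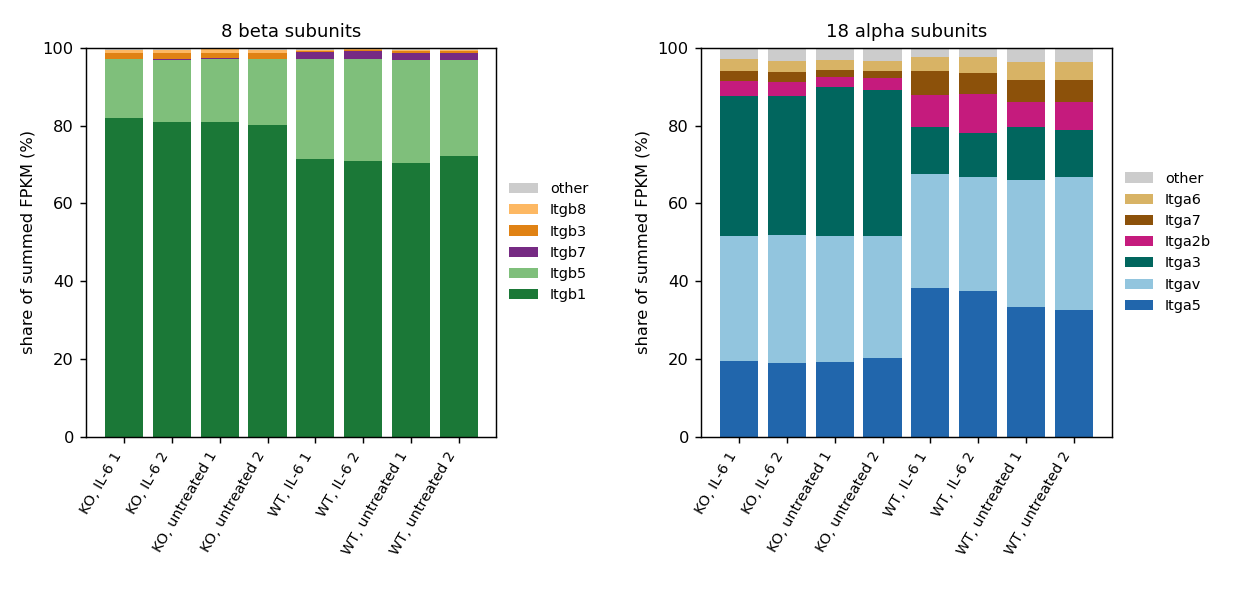
Share of the summed FPKM of the 8 beta genes (left) and the 18 alpha genes (right) held by each gene, 1 bar per library, KO libraries to the left of WT libraries. Itgb1 takes 80.1 to 82.1% of the beta sum in KO and 70.5 to 72.1% in WT, and Itga3 35.8 to 38.4% of the alpha sum in KO and 11.3 to 13.7% in WT.

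Among RGD-binding alpha subunits the 2 main ones moved apart. Itgav was at 49.5 and 52.9 FPKM in KO with IL-6 and 52.5 and 50.04 in untreated KO, against 34.1 and 34.8 in WT with IL-6 and 40.4 and 43.4 in untreated WT. All KO libraries were higher, by 0.29 ± 0.053 without IL-6 (adjusted p = 0.001777) and, with IL-6, 0.56 ± 0.053 (adjusted p = 4.144e-05). Itga5, whose pair with beta 1 is the classical fibronectin receptor, was at 29.8 and 30.4 FPKM in KO with IL-6 and 31.0 and 32.2 in untreated KO, against 44.7 and 44.2 in WT with IL-6 and 41.2 and 41.4 in untreated WT. Every KO library was lower, by -0.38 ± 0.039 without IL-6 (adjusted p = 7.084e-05) and, with IL-6, -0.55 ± 0.039 (adjusted p = 8.126e-06). Of the summed FPKM of the 18 alpha genes, Itga5 held 18.9 to 20.2% in KO and 32.6 to 38.3% in WT, while the shares of Itgav overlapped at 31.4 to 32.9% in KO and 29.2 to 34.1% in WT.

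Itga2b, the platelet subunit, was listed at 5.91 and 5.58 FPKM in KO with IL-6 and 4.01 and 5.14 in untreated KO, against 9.70 and 12.0 in WT with IL-6 and 7.91 and 9.04 in untreated WT. All KO libraries were lower (-0.77 ± 0.13, adjusted p = 0.001063 without IL-6, and -0.81 ± 0.13, adjusted p = 0.0007958 with it). Only 11.9 to 21.02% of its FPKM belonged to the protein-coding transcript, the rest to transcripts annotated as non-coding, so the gene sum is not a level of coding mRNA. Of the 4 megakaryocyte markers, Ppbp was tested and Gp9 was under 0.1 FPKM in all libraries, and the list summed to 0.208 to 0.307 FPKM in KO and 1.10 to 2.36 FPKM in WT. Itga8, the nephronectin receptor subunit, was at 0.1002 to 0.196 FPKM in KO and 0.0105 to 0.221 FPKM in WT, under the threshold and overlapping.

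Among the laminin-binding subunits Itga3 was higher in KO and Itga7 lower. Itga3 was at 55.5 and 57.5 FPKM in KO with IL-6 and 62.2 and 59.8 in untreated KO, against 14.0 and 13.3 in WT with IL-6 and 16.9 and 15.7 in untreated WT. Its KO libraries were all above its WT libraries, 3.74-fold by the group means without IL-6 and 4.13-fold with it (1.84 ± 0.053, adjusted p = 6.229e-08, and 1.97 ± 0.053, adjusted p = 4.204e-08). Itga7, a subunit of skeletal muscle, was at 3.96 and 4.17 FPKM in KO with IL-6 and 3.13 and 2.87 in untreated KO, against 7.17 and 6.40 in WT with IL-6 and 7.14 and 7.04 in untreated WT. It was lower in every KO library (-1.02 ± 0.074, adjusted p = 1.051e-05 without IL-6, and -0.62 ± 0.074, adjusted p = 0.0001659 with it), and all 6 skeletal-muscle markers were under 0.1 FPKM in both genotypes. Itga6, which binds laminin with beta 1 or beta 4, was at 4.596 and 4.48 FPKM in KO with IL-6 and 4.16 and 4.23 in untreated KO, against 4.14 and 4.84 in WT with IL-6 and 5.84 and 6.13 in untreated WT. The untreated KO libraries were lower than the untreated WT libraries (-0.43 ± 0.077, adjusted p = 0.001589), and the groups with IL-6 overlapped (0.02 ± 0.077, adjusted p = 0.8689). The sum of the 3 genes was 64.0 to 69.5 FPKM in KO and 24.5 to 29.9 FPKM in WT. Itga3 held 86.6 to 89.5% of it in KO and 54.2 to 56.6% in WT.

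Collagen-binding subunits were low, and their make-up differed between the genotypes. Itga1 was at 2.19 and 2.58 FPKM in KO with IL-6 and 2.35 and 2.13 in untreated KO, against 0.735 and 0.713 in WT with IL-6 and 0.629 and 0.879 in untreated WT. Only KO libraries brought Itga1 over the expression threshold, so its p-values are no independent support. Itga1 was higher in every KO library (0.89 ± 0.11, adjusted p = 0.0001659 without IL-6, and 0.97 ± 0.11, adjusted p = 9.483e-05 with it). Part of this sum lies in a retained-intron transcript, Itga1-206, with 0.699 to 1.09 FPKM in KO and 0.00520 to 0.272 FPKM in WT. The coding transcript Itga1-201 was at 1.15 to 1.47 FPKM in KO and 0.518 to 0.693 FPKM in WT. Pelo, a gene inside Itga1 on the same strand, was itself at 16.2 to 17.6 FPKM in KO and 10.4 to 11.1 FPKM in WT, so the Itga1 sum is uncertain.

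Itga10 ran the other way, at 0.778 and 0.985 FPKM in KO with IL-6 and 1.18 and 0.983 in untreated KO, against 1.46 and 1.38 in WT with IL-6 and 2.57 and 2.74 in untreated WT. It was lower in every KO library, by -0.81 ± 0.096 without IL-6 (adjusted p = 0.0001598) and, with IL-6, -0.36 ± 0.096 (adjusted p = 0.0103). The second did not pass without KO library 1 with IL-6 (adjusted p = 0.06202). Itga10 is best known from cartilage. Of the 3 chondrocyte markers Sox9 was tested and lower in KO, Acan was under 0.1 FPKM in every library, and the list summed to 0.889 to 1.16 FPKM in KO and 1.80 to 2.69 FPKM in WT. Itga11, the fibrillar-collagen receptor of fibroblasts, was at 0.786 and 1.05 FPKM in KO with IL-6 and 0.797 and 1.09 in untreated KO, against 0.0531 and 0.0469 in WT with IL-6 and 0.0926 and 0.149 in untreated WT. It was close to 0 in WT and near 1 FPKM in KO (0.79 ± 0.12, adjusted p = 0.0006301 without IL-6, and 0.87 ± 0.12, adjusted p = 0.0003681 with it). Itga11 too reached the expression threshold in KO only, so its p-values are no independent support. The pseudocount compresses all 3 of these low genes: with 0.1 in place of 1 the untreated differences were 1.47 for Itga1, -1.22 for Itga10 and 2.24 for Itga11, and with IL-6 they were 1.59, -0.64 and 2.75. Itga2 was under the threshold at 0.0108 to 0.0194 FPKM in KO and 0.0757 to 0.410 FPKM in WT. Of the FPKM of the 4 genes, Itga1 held 50.5 to 58.2% in KO and 17.0 to 32.1% in WT, and Itga10 20.6 to 27.2% in KO and 59.9 to 69.4% in WT.

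The leukocyte alpha subunits were at or near 0. Itgal was at 0.202 to 0.365 FPKM in KO, or 33.7 to 51.7 fragments, and 0 to 0.0462 FPKM in WT. Itgam, Itgax and Itgad did not exceed 0.045 FPKM in any library. Itga9 was at 0.108 to 0.411 FPKM in KO and 0.0512 to 0.295 FPKM in WT, and its range overlapped. Of the 14 members under the threshold, 6 passed between untreated KO and WT when no threshold was applied. Itga4 and Itgal were higher, and Itga2, Itgae, Itgb6 and Nrcam lower. With IL-6, 4 passed (Itga4 and Itgal higher, Itgae and Nrcam lower). Over all genes, 11044 passed in that setting without IL-6 and 10987 with it. These counts also include genes over the threshold, and the number of genes tested in that setting is not given here. They therefore do not show whether 6 of 14 is a usual share for genes under the threshold. The 6 differences without IL-6 ran from -0.90 for Nrcam to 0.25 for Itgal, with Itgb6 at -0.08.

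All 6 tested adhesion molecules outside the integrins passed between KO and WT in both conditions, beside 71.0% of all genes without IL-6 and 71.7% with it. Icam1, the ligand of the leukocyte integrins LFA-1 and Mac-1, was at 5.17 and 4.30 FPKM in KO with IL-6 and 4.32 and 3.90 in untreated KO, against 46.9 and 44.4 in WT with IL-6 and 37.5 and 36.5 in untreated WT. Every KO library was far below every WT library, 8.997-fold by the group means without IL-6 and 9.63-fold with it (-2.89 ± 0.081, adjusted p = 5.556e-08, and -3.03 ± 0.081, adjusted p = 4.204e-08). Vcam1, the ligand of alpha 4 integrins, was the highest of this group and went the other way. It was at 117 and 116 FPKM in KO with IL-6 and 110 and 106 in untreated KO, against 37.5 and 35.7 in WT with IL-6 and 48.6 and 52.9 in untreated WT. Its KO libraries were all higher (1.08 ± 0.050, adjusted p = 8.057e-07 without IL-6, and 1.65 ± 0.050, adjusted p = 7.18e-08 with it). Thus Vcam1 and Icam1, both endothelial ligands for leukocytes, differed in opposite directions. Of the 8 endothelial markers, Tek was at 8.62 to 9.55 FPKM in KO and 0.0062 to 0.118 FPKM in WT, Kdr at 2.13 to 2.46 FPKM in KO and 0.0086 to 0.0201 FPKM in WT, and Egfl7 at 10.8 to 12.5 FPKM in KO and 14.97 to 17.1 FPKM in WT, while Cdh5, Emcn, Cldn5 and Tie1 were under 0.1 FPKM in every library. Their part in the levels of Vcam1 and Icam1 was not tested. Icam2 was at 0 to 0.0673 FPKM in KO and 0 to 0.0209 FPKM in WT.

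Alcam, which binds CD6 and other ALCAM molecules, was at 54.2 and 55.7 FPKM in KO with IL-6 and 59.3 and 56.8 in untreated KO, against 6.08 and 6.43 in WT with IL-6 and 9.70 and 10.5 in untreated WT. All KO libraries were above all WT libraries, 5.76-fold by the group means without IL-6 and 8.79-fold with it (2.41 ± 0.053, adjusted p = 1.698e-08, and 2.95 ± 0.053, adjusted p = 5.646e-09). Mcam, an adhesion molecule of vessel wall cells and melanoma, was at 17.5 and 18.4 FPKM in KO with IL-6 and 17.8 and 18.03 in untreated KO, against 8.66 and 9.65 in WT with IL-6 and 6.28 and 6.77 in untreated WT. The KO libraries were higher (1.33 ± 0.066, adjusted p = 1.192e-06 without IL-6, and 0.90 ± 0.066, adjusted p = 9.729e-06 with it). Of the 6 smooth-muscle and pericyte markers 3 were tested, Acta2 higher and Cspg4 and Cnn1 lower in KO, and the list summed to 319.7 to 354.4 FPKM in KO and 41.3 to 81.3 FPKM in WT, mostly Acta2.

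Among the molecules best known from neurons, Ncam1 was higher and L1cam lower in KO. Ncam1, the homophilic neural cell adhesion molecule, was at 33.8 and 34.1 FPKM in KO with IL-6 and 34.3 and 35.3 in untreated KO, against 8.43 and 8.53 in WT with IL-6 and 12.1 and 11.9 in untreated WT. No KO library overlapped a WT library (1.46 ± 0.042, adjusted p = 5.988e-08 without IL-6, and 1.88 ± 0.042, adjusted p = 1.546e-08 with it). L1cam, which guides axons, was at 0.123 and 0.0388 FPKM in KO with IL-6 and 0.0573 and 0.126 in untreated KO, against 1.29 and 1.71 in WT with IL-6 and 1.43 and 1.37 in untreated WT. It was close to 0 in KO (-1.13 ± 0.11, adjusted p = 6.167e-05 without IL-6, and -1.21 ± 0.11, adjusted p = 4.18e-05 with it, or -2.99 and -3.17 with a pseudocount of 0.1). L1cam reached the expression threshold in WT only, so its p-values are no independent support. Arhgap4, which overlaps L1cam on the same strand, was at 0.0405 to 0.0944 FPKM in KO and 0.158 to 0.279 FPKM in WT.

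Nrcam, a relative of L1 at the nodes of Ranvier, had the same order below the threshold. It was at 0 and 0.00533 FPKM in KO with IL-6 and listed at 0 in both untreated KO libraries, against 0.711 and 0.831 in WT with IL-6 and 0.880 and 0.849 in untreated WT. This is about 0 to 1 fragment per KO library and 114 to 142 per WT library, and without the threshold Nrcam passed at -0.90 without IL-6 and -0.82 with it. Chl1 was listed at 0 in all 4 KO libraries and at 0.0108 to 0.118 FPKM in WT. Of the 8 Schwann cell and neuron markers 4 were tested, Tubb3 higher and Stmn2, Gap43 and Erbb3 lower in untreated KO. The list summed to 22.0 to 26.7 FPKM in KO and 99.7 to 154.9 FPKM in WT, mostly Stmn2, with Sox10 and Elavl4 under 0.1 FPKM in all libraries.

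**Figure D3:**
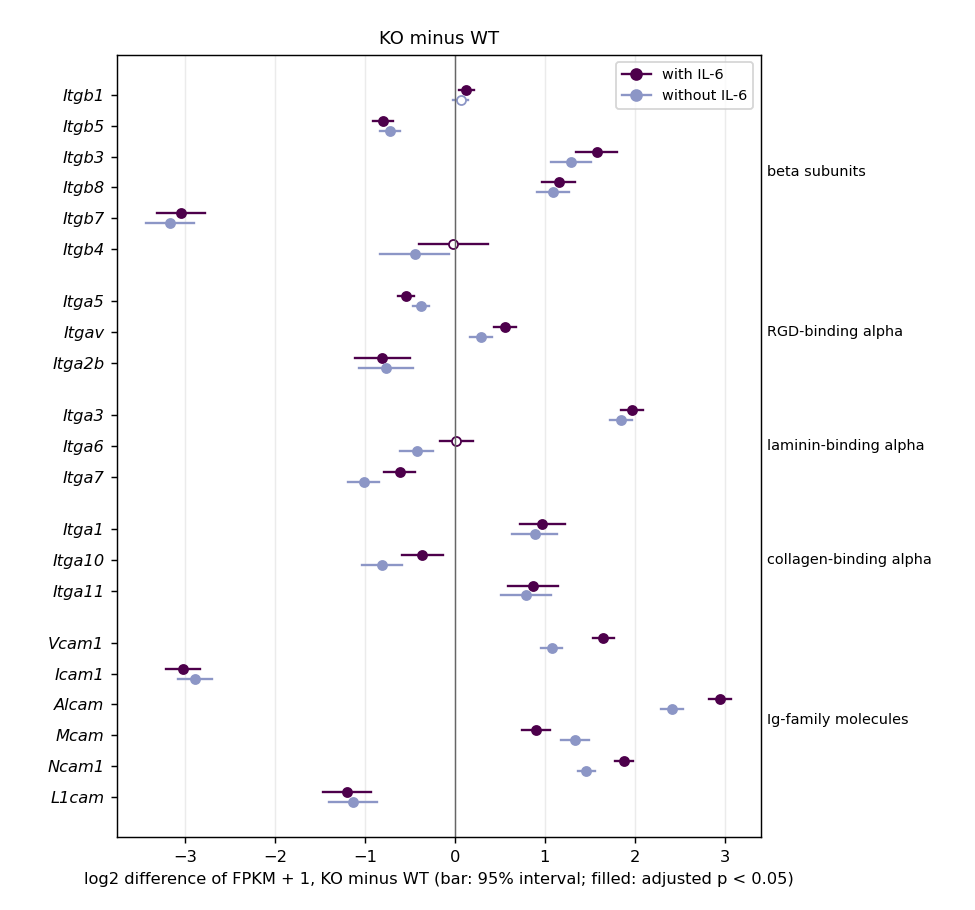
Log2 difference of FPKM + 1, KO minus WT, with its 95% interval, for the 21 tested members with IL-6 (dark) and without it (light). Filled points passed at an adjusted p below 0.05, open points (Itgb1 without IL-6, Itga6 and Itgb4 with it) did not, and Alcam lies farthest to the right, at 2.95 with IL-6 and 2.41 without, and Itgb7 and Icam1 farthest to the left.

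The split of each gene between its annotated transcripts, as Cufflinks estimated it, was compared for the 49 transcripts of tested members that held on average at least 5% of their gene's FPKM. The KO and WT ranges of this share lay apart for 12 of them, beside 16.31% of the 28971 such transcripts of all genes tested. Of the Mcam FPKM, the transcript for the longer protein of 648 residues, Mcam-201, held 61.4 to 69.0% in KO and 35.9 to 50.5% in WT. Mcam-202, for 606 residues, held 27.7 to 33.8% in KO and 45.4 to 56.1% in WT. Vcam1-201, for the longest VCAM-1 of 739 residues, held 74.4 to 76.4% in KO and 62.2 to 67.1% in WT, and Vcam1-203, for 345 residues, 14.1 to 15.7% in KO and 19.7 to 23.0% in WT. The third Vcam1 transcript, Vcam1-202, overlapped at 7.86 to 11.2% in KO and 10.01 to 17.97% in WT. Ncam1-204, for 848 residues, held 38.5 to 41.9% in KO and 43.7 to 50.5% in WT, and Ncam1-202, for 849 residues, 30.8 to 36.0% in KO and 26.9 to 29.9% in WT. The Itgb1 ranges overlapped, with 82.5 to 82.95% in the coding transcript Itgb1-201 in KO and 79.3 to 83.5% in WT. The ranges of Mcam-201, Mcam-202, Vcam1-201, Vcam1-203, Ncam1-202 and Ncam1-204 did not overlap between the genotypes, and no test was run on shares.

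In WT MEFs, 24 h of IL-6 lowered more adhesion genes than it raised. Alcam, Ncam1, Vcam1, Itga10, Itga6, Itgav and Itga3 fell, and Mcam and Icam1 rose, 9 of the 21 tested members, against 15.7% of all genes (8.30% higher and 7.41% lower). No beta subunit passed. When all libraries were given equal total FPKM, 34.8% of all calls were higher in place of 52.8%, and the direction of these 9 members was the same. The median change was -0.06 over the members and -0.00 over all genes, and the median size 0.25 over the members and 0.11 over all genes. Fitting the WT groups alone gave 5 members, and leaving out WT library 1 with IL-6 also gave 5.

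By log2 of FPKM + 1, Alcam fell most, to 6.08 and 6.43 FPKM with IL-6, against 9.70 and 10.5 in untreated WT (-0.61 ± 0.053, adjusted p = 0.0004161). By the group means Itga10 fell further, to 53.5% of its untreated WT level, beside 62.0% for Alcam. With a pseudocount of 0.1 the changes were -0.86 for Itga10 and -0.68 for Alcam. Vcam1 was at 37.5 and 35.7 FPKM with IL-6 and 48.6 and 52.9 in untreated WT (-0.46 ± 0.050, adjusted p = 0.001132), and Ncam1 at 8.43 and 8.53 with IL-6 and 12.1 and 11.9 in untreated WT (-0.45 ± 0.042, adjusted p = 0.0005225). Itga10, low as it was, had 1.46 and 1.38 FPKM with IL-6 and 2.57 and 2.74 in untreated WT (-0.59 ± 0.096, adjusted p = 0.0068). In these 4 genes both libraries with IL-6 lay below both untreated ones, and the calls held in every alternative that tested them. Mcam rose to 8.66 and 9.65 FPKM with IL-6, against 6.28 and 6.77 in untreated WT (0.43 ± 0.066, adjusted p = 0.0053), a call that ended when the WT groups were fitted alone (0.06731).

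The other 4 changes were smaller and their calls less stable. Icam1 was at 46.9 and 44.4 FPKM with IL-6 and 37.5 and 36.5 in untreated WT, 1.23-fold by the means (0.30 ± 0.081, adjusted p = 0.04935). Its call ended in 11 of 16 alternatives, among them each left-out WT library, each left-out untreated KO library and all 3 other scalings, with adjusted p from 0.02744 to 0.2018 over all 16. Itga6 was at 4.14 and 4.84 FPKM with IL-6 and 5.84 and 6.13 in untreated WT (-0.35 ± 0.077, adjusted p = 0.02337), and the call ended without untreated library 1 (0.06824) or 2 (0.1119) or library 1 with IL-6 (0.1051). Itgav was at 34.1 and 34.8 FPKM with IL-6 and 40.4 and 43.4 in untreated WT (-0.27 ± 0.053, adjusted p = 0.01372), and the call ended without untreated library 2 (0.07203) or library 1 (0.07233) or 2 (0.0559) with IL-6. Itga3 was at 14.0 and 13.3 FPKM with IL-6 and 16.9 and 15.7 in untreated WT (-0.24 ± 0.053, adjusted p = 0.02417), and the call ended without untreated library 1 (0.1005) or library 1 (0.05566) or 2 (0.1147) with IL-6. Fitting the WT groups alone ended the calls of Itga3 (0.1201), Itga6 (0.1152) and Itgav (0.05885), and testing all genes without a threshold those of Itga3 (0.05309) and Itga6 (0.06525). In each of these 4 genes the libraries with IL-6 did not overlap the untreated ones, as was true of 15 members and of 56.3% of all genes.

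Markers moved with IL-6 in WT as well. Acta2, smooth-muscle actin, was at 15.7 and 17.1 FPKM with IL-6 and 46.1 and 44.6 in untreated WT, and the summed smooth-muscle and pericyte list at 41.3 to 43.8 FPKM with IL-6 and 78.6 to 81.3 FPKM without. The leukocyte list, mostly the LPS co-receptor gene Cd14, summed to 37.8 to 38.6 FPKM with IL-6 and 21.3 to 22.3 FPKM without. The Schwann cell and neuron list, mostly Stmn2, summed to 152.1 to 154.9 FPKM with IL-6 and 99.7 to 101.7 FPKM without. The mesothelial list summed to 38.3 to 41.1 FPKM with IL-6 and 47.2 to 52.7 FPKM without. The fibroblast list summed to 3264 to 3444 FPKM with IL-6 and 3726 to 3827 FPKM without, with 3 genes higher and 3 lower, Dcn being at 464.5 and 393.9 FPKM with IL-6 and 156.8 and 174.8 without. The megakaryocyte list summed to 1.90 to 2.36 FPKM with IL-6 and 1.10 FPKM without, where Ppbp rose, and no gene of the epithelial, endothelial or chondrocyte list passed. Their part in the changes of the adhesion genes was not tested.

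**Figure D4:**
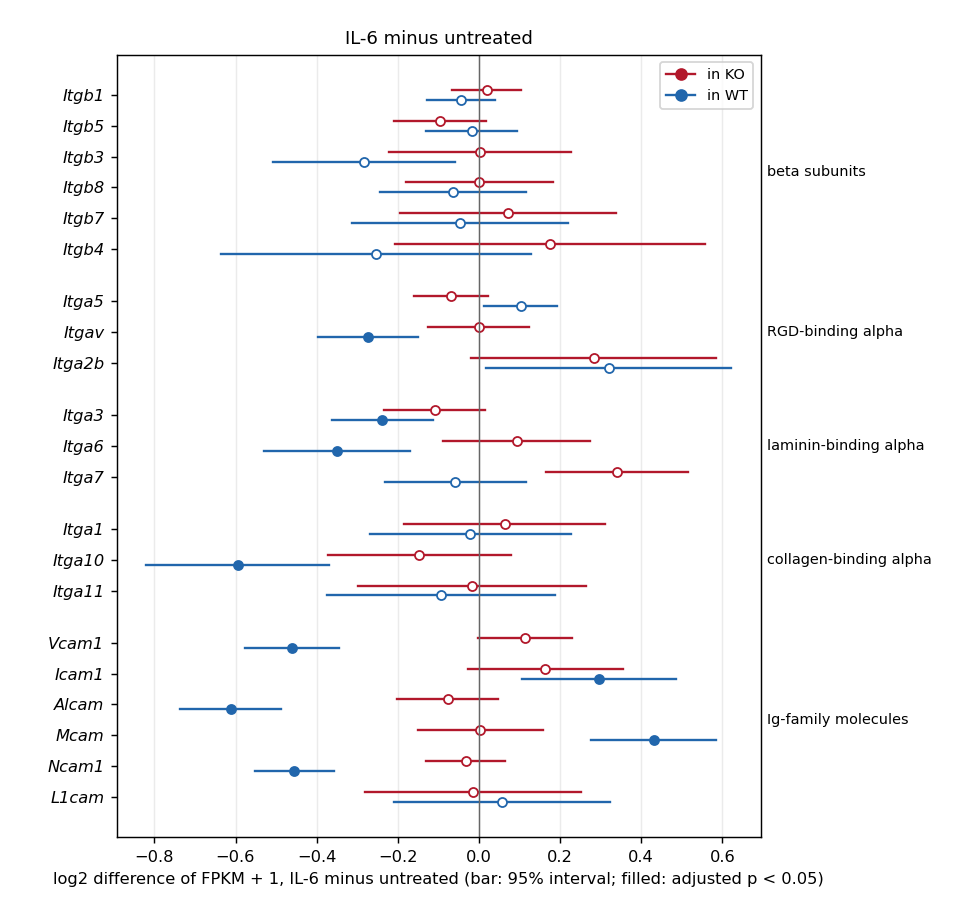
Log2 difference of FPKM + 1, IL-6 minus untreated, with its 95% interval, for the 21 tested members in KO (red) and WT (blue). Filled points passed at an adjusted p below 0.05: 9 in WT, with Alcam lowest at -0.61 and Mcam highest at 0.43, and none in KO.

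In KO MEFs no member passed with IL-6 in limma, 1 was at an unadjusted p below 0.05, and among all genes 3 passed (0.0219%) and 1025 were at an unadjusted p below 0.05. The single member was Itga7, at 3.96 and 4.17 FPKM with IL-6 and 3.13 and 2.87 in untreated KO (0.34 ± 0.074, adjusted p = 0.35). The intervals show what size these data leave room for. For Alcam the change in KO was -0.08 (95% interval -0.20 to 0.05), for Vcam1 0.11 (-0.00 to 0.23), for Ncam1 -0.03 (-0.13 to 0.06), for Mcam 0.00 (-0.15 to 0.16) and for Icam1 0.16 (-0.03 to 0.35). A miss of the threshold does not show that these genes kept their level.

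The difference between the IL-6 changes of the 2 genotypes, which tests whether they respond unequally, passed for 4 of 21 members, 3 higher and 1 lower in KO, against 6.06% of all genes (2.54% higher and 3.52% lower). With equal totals 55.1% of these calls over all genes were higher in KO in place of 41.9%. The difference was 0.57 ± 0.070 for Vcam1 (adjusted p = 0.004843), 0.53 ± 0.075 for Alcam (adjusted p = 0.008774), 0.42 ± 0.059 for Ncam1 (adjusted p = 0.008614) and -0.43 ± 0.093 for Mcam (adjusted p = 0.04173). In the first 3 genes WT fell with IL-6 and no change passed in KO, and in Mcam WT rose while the KO libraries stood at 17.5 to 18.4 FPKM with IL-6 and 17.8 to 18.03 FPKM without. The first 3 calls held in every alternative. That of Mcam ended without any 1 of 7 libraries, all but WT library 1 with IL-6 (adjusted p = 0.06834 to 0.1358), and without the expression threshold (0.0941).

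No integrin passed this test. Itga6 came nearest with 0.44 ± 0.11 (adjusted p = 0.06254), and it passed with equal totals (0.48, adjusted p = 0.04546). Itga10, Itga7 and Itgav differed by 0.45 ± 0.14, 0.40 ± 0.11 and 0.27 ± 0.074, with adjusted p of 0.1124, 0.0764 and 0.08332. For Icam1 the difference was -0.13 ± 0.11 (95% interval -0.40 to 0.14, adjusted p = 0.5748), so the change of Icam1 in WT is not shown to differ from that in KO.

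**Figure D5:**
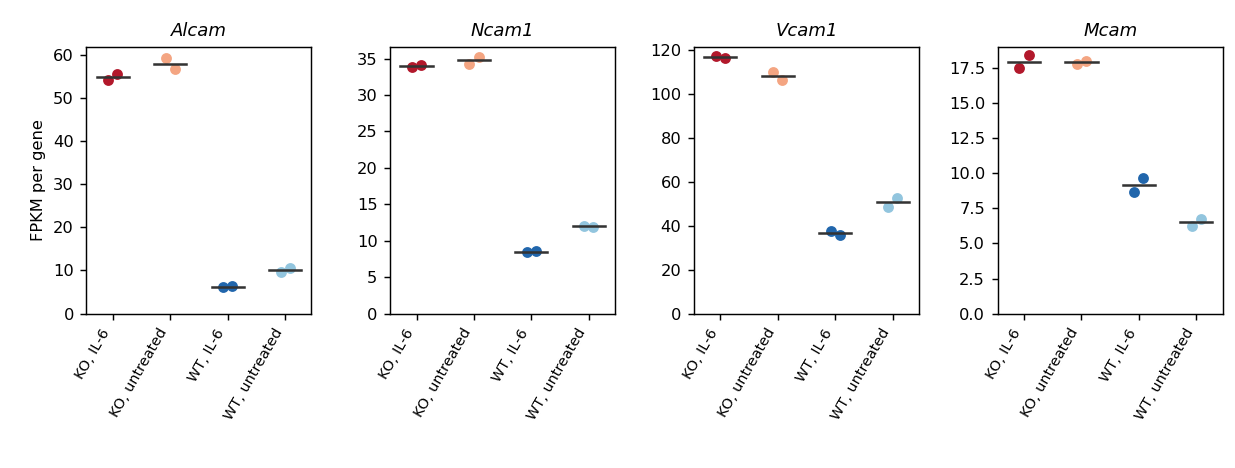
FPKM in each library (points) and group mean (line) for the 4 members whose IL-6 change differed between the genotypes, with each axis starting at 0. In Alcam, Ncam1 and Vcam1 the WT libraries with IL-6 lie below the untreated ones, in Mcam above them, and the KO groups lie close together.

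Genes that act with these receptors were read beside the members in 4 lists. Among 40 tested genes of integrin adaptors and focal adhesions, the proteins that tie integrin tails to actin, 18 were higher and 11 lower in untreated KO, with a median difference of 0.11 beside 0.01 over all genes. In the same comparison 71.0% of all genes passed, 36.4% higher and 34.5% lower, so the share of passing adaptors was close to that of any genes. Kank1, a focal-adhesion rim protein, averaged 50.4 FPKM in untreated KO and 9.49 in untreated WT (2.29, adjusted p = 6.562e-08), Tns3, a tensin, 86.4 FPKM in untreated KO and 34.2 in untreated WT (1.31), and Zyx, zyxin, 233.0 FPKM in untreated KO and 69.2 in untreated WT (1.74). Apbb1ip, the talin recruiter RIAM, averaged 3.29 FPKM in untreated KO and 27.3 in untreated WT (-2.72, adjusted p = 1.856e-08). With IL-6 in WT, 1 of the 40 rose and 9 fell, beside 8.30% of all genes higher and 7.41% lower. Zyx averaged 95.2 FPKM with IL-6 and 69.2 in untreated WT (0.46, adjusted p = 0.002241), and Vcl, vinculin, 54.2 FPKM with IL-6 and 67.9 in untreated WT (-0.32, adjusted p = 0.002526). Vcl and Zyx were also the 2 of these 40 genes whose IL-6 change differed between KO and WT, beside 6.06% of all genes (0.36, adjusted p = 0.01494, and -0.47, adjusted p = 0.01842).

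Of 35 tested matrix ligands, 18 were higher and 13 lower in untreated KO, beside 36.4% of all genes higher and 34.5% lower (median 0.27 beside 0.01 over all genes). The basement-membrane gene Nid2 averaged 213.9 FPKM in untreated KO and 7.20 in untreated WT (4.71, adjusted p = 1.248e-09), and Lama5, the laminin alpha 5 chain bound by alpha 3 and alpha 6 integrins, 61.4 FPKM in untreated KO and 0.602 in untreated WT (5.28). Postn, periostin, an alpha v ligand, averaged 10.1 FPKM in untreated KO and 482.6 in untreated WT (-5.44), and Tgfbi 15.8 FPKM in untreated KO and 106.7 in untreated WT (-2.68). In WT, 7 of the 35 rose and 13 fell with IL-6 (median -0.14), beside 8.30% of all genes higher and 7.41% lower. Thbs1, thrombospondin 1, averaged 33.6 FPKM with IL-6 and 78.8 in untreated WT (-1.21, adjusted p = 1.996e-05), Npnt, nephronectin, 1.48 FPKM with IL-6 and 3.92 in untreated WT (-0.99), and Ccn2 10.6 FPKM with IL-6 and 23.9 in untreated WT (-1.10). In KO only Spp1, osteopontin, passed among these 35, beside 0.0219% of all genes, at 110.4 FPKM with IL-6 and 73.7 in untreated KO (0.58, adjusted p = 0.002797). The IL-6 change differed between the genotypes for 10 ligands, 7 higher and 3 lower in KO, beside 2.54% of all genes higher and 3.52% lower, with Thbs1 at 1.17, Ccn2 at 0.96 and Npnt at 0.87.

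Among 35 other immunoglobulin-family adhesion genes 19 were tested, 13 higher and 4 lower in untreated KO, beside 36.4% of all genes higher and 34.5% lower (median 0.97 beside 0.01 over all genes). Cadm1 averaged 64.6 FPKM in untreated KO and 0.0409 in untreated WT (5.98, adjusted p = 5.753e-10), Cxadr, the coxsackievirus and adenovirus receptor of tight junctions, 145.5 FPKM in untreated KO and 2.67 in untreated WT (5.32), Nectin2 78.6 FPKM in untreated KO and 3.78 in untreated WT (4.06) and F11r, JAM-A, 173.6 FPKM in untreated KO and 35.1 in untreated WT (2.27). These 4 are best known from epithelial and other cell junctions, and all 5 mesothelial and 4 of the 5 tested epithelial markers were also higher in KO, Cldn7 being lower. The part of these markers in the differences of this list was not tested. Nectin3 and Ptgfrn went the other way, averaging 6.85 and 31.8 FPKM in untreated KO and 12.8 and 56.5 FPKM in untreated WT. Of the epithelial markers that were not tested, Epcam was at 0.487 to 0.636 FPKM in KO and 0.421 to 0.662 FPKM in WT, and Cldn4 was under 0.1 FPKM. With IL-6 in WT 5 of the 19 rose and 4 fell, beside 8.30% of all genes higher and 7.41% lower, with Cxadr at 6.22 FPKM with IL-6 and 2.67 in untreated WT (0.97, adjusted p = 0.0002236).

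All 17 membrane partners of integrins were tested. In untreated KO 6 were higher and 8 lower, beside 36.4% of all genes higher and 34.5% lower (median -0.11 beside 0.01 over all genes). The lower ones included Lgals3, galectin 3, at 115.3 FPKM in untreated KO and 623.7 in untreated WT (-2.42, adjusted p = 1.673e-09), Cd44, the hyaluronan receptor, at 15.6 FPKM in untreated KO and 80.9 in untreated WT (-2.31), and Sdc2, a syndecan, at 38.2 FPKM in untreated KO and 134.8 in untreated WT (-1.79). With IL-6 in WT 8 of the 17 rose and 5 fell, beside 8.30% of all genes higher and 7.41% lower. Sdc4, the syndecan of focal adhesions, averaged 127.6 FPKM with IL-6 and 75.4 in untreated WT (0.75, adjusted p = 0.0001251), and Plaur, the urokinase receptor, 24.6 FPKM with IL-6 and 17.9 in untreated WT (0.44, adjusted p = 0.0006563). For both the IL-6 change was lower in KO (-0.69, adjusted p = 0.002466, and -0.58, adjusted p = 0.002424), and no gene of this list passed with IL-6 in KO in limma.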

How the data were processed

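Polyadenylated RNA of 8 MEF libraries was sequenced after a stranded mRNA preparation (TruSeq), per the labels' protocols. The authors deposited FPKM per transcript. HISAT2, Cufflinks 2.2.1 and GRCm38.p6 are named in the submitters' processing notes, and whether counting used strand is not given in the sources used here, so reads of overlapping genes may be mixed.

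Transcript FPKM were summed per gene and tested as log2(FPKM + 1) with limma 3.58.1 in R 4.3.3 (a mean for each of the 4 groups in 1 fit of the 8 libraries, leaving 4 residual degrees of freedom; trended empirical Bayes; genes reaching 1 FPKM in 2 or more libraries), with Benjamini-Hochberg adjustment over 13693 genes in each of 5 comparisons. The pseudocount of 1 understates changes of low genes. The test was checked on simulated data for IL-6 in WT only, with independent libraries and changes added to genes well above 0. That check does not cover low genes, the other comparisons or libraries that share a culture. With 2 libraries against 2, an exact permutation test of 1 gene cannot go below p = 0.333, so none was used. Tables were read in pandas 2.3.3 and numpy 2.4.6 (Python 3.11.15), and figures drawn in matplotlib 3.10.9.

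Deposited values hold no counts. Fragment numbers are estimates: with a depth and a mean fragment length fitted for each library, 92.9 to 94.4% of its 1771 to 1992 low values came out whole to within 0.1. Total FPKM was 536816 to 584995 per library. No 2 libraries held identical values.

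The members and the gene lists were chosen with earlier results of these data known. Members tested were described by library where they passed in a comparison, the others by range, and list genes by the smallest p, up to 4 a comparison. Alternatives were 3 other scalings, another pseudocount, no filter or 5 FPKM, a replicate block, a fit of the compared groups alone and each library left out. No pairing of the libraries by replicate number was seen, and the labels state none.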

Additional observations from a re-analysis of the deposited data

Results flagged for a closer look

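In 4 adhesion molecules the change with IL-6 differed between KO and WT by a test of that difference over all genes (limma, log2 of FPKM + 1, KO change minus WT change). These were 4 of 21 tested members, beside 6.06% of all genes, and none of the 15 tested integrins passed. For Vcam1 the difference was 0.57 (adjusted p = 0.004843), with a change of 0.11 in KO and -0.46 in WT. For Alcam it was 0.53 (adjusted p = 0.008774), with -0.08 in KO and -0.61 in WT. For Ncam1 it was 0.42 (adjusted p = 0.008614), with -0.03 in KO and -0.45 in WT. For Mcam it was -0.43 (adjusted p = 0.04173), with 0.00 in KO and 0.43 in WT, a call that ended when any 1 of 7 libraries was left out. Each group held 2 libraries, and none of the changes in KO passed.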

How the results depend on the processing

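Of the 52 calls of tested members in the 5 comparisons, 43 held in every alternative that tested them, and no call changed direction in any. The count of members passing with IL-6 in WT was 5 with only the WT groups in place of 9, and 5 to 9 with a library left out. With a library left out, 19 to 20 members passed between KO and WT without IL-6, 17 to 19 with IL-6, 3 to 4 for the difference between the IL-6 changes and 0 for IL-6 in KO.

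Over all genes, IL-6 in WT gave 938 calls with only the WT groups in place of 2150, and 1165 to 1774 with a library left out. IL-6 in KO gave 7 without a filter, 5 with a filter of 5 FPKM, 0 with only the KO groups and 0 to 4 with a library left out, in place of 3. The difference between the changes gave 521 without a filter and 383 to 523 with a library left out, in place of 830. KO against WT gave 8823 to 9663 calls without IL-6 and 8901 to 9829 with it when a library was left out.

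With the replicate number as a block, 9 members passed for IL-6 in WT, 0 for IL-6 in KO, 19 for KO against WT without IL-6, 19 with it and 4 for the difference between the changes, and 1696, 2, 9566, 9685 and 564 of all genes. Same-numbered libraries did not deviate together (correlations of -0.097 to 0.055). This shows no pairing by number, but it cannot exclude a shared culture or day, which the labels do not state. Of member calls, the block ended that of Itgb4 alone.

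With 2 libraries a group, a call near the threshold rests on each of them. Values below about 0.1 FPKM rest on few fragments, so differences there were often not detectable at this depth.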
